A study of Rattus norvegicus with 6 samples.

Results

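Claudins are the membrane proteins that form the strands of the tight junction between neighbouring epithelial cells. Each nephron segment carries its own set, and the set decides which ions and how much water pass between the cells rather than through them. Some claudins form pores and others seal the cleft. The 10 genes described here, Cldn1, Cldn2, Cldn3, Cldn4, Cldn7, Cldn8, Cldn10, Cldn16, Cldn19 and Cldn22, were taken by name from the claudins known along the rat nephron and its surroundings, and were matched to 20 of 61573 array probes through the RefSeq accession of each probe. They are 10 of 15284 named genes. The list was chosen with the measured log2 differences between the groups already known and counts as selected on them, so those differences are given as a description and not as a test.

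Renal cortex was taken from 6 male Sprague-Dawley rats that were 5 weeks old at purchase. The control group of 3 rats was given corn oil for 4 weeks, and the treated group of 3 rats was given o-nitroanisole, a nitroaromatic compound, at 400 mg/kg/day for 4 weeks. Each rat gave 1 single-colour (Cy3) array of total RNA, and the labels call the 3 arrays of a group biological replicates. The comparison asks how transcripts of the cortex differ after this treatment.

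The signal of a probe is given as a percentage of the 75th percentile of its array, and a difference is the mean log2 signal of the 3 treated arrays minus that of the 3 control arrays, given ± limma's moderated standard error (SE). The 75th percentile lay between 905 and 1041 scanner units, and 66.4% to 71.5% of probes were well above background per array. Precision is limited by having 6 arrays. Controls shared 1 slide and scan and treated rats shared another, so slide and group cannot be told apart in any difference given here. All 20 claudin probes were well above background on all 6 arrays and no spot of theirs was marked as an outlier, so every member entered the fit. With limma's default moderation and Benjamini-Hochberg adjustment at 0.05, 0 of 32428 genes and unnamed probes passed (0.0%), the claudins among them; the smallest adjusted p was 0.0711, 6142 had an unadjusted p under 0.05, and limma called 522 with a mean-variance trend and robust moderation and 115 after normexp background correction.

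Cldn22 stood highest of the 10 claudins, with a log2 difference of 2.00 ± 0.28, followed by Cldn4, a claudin of the collecting duct, at 0.94 ± 0.10, and Cldn7, a claudin of the distal nephron and collecting duct, at 0.36 ± 0.08. Within this set, the claudins of the proximal tubule and the thick ascending limb lay below 0: Cldn16 at -0.41 ± 0.16, Cldn10 at -0.29 ± 0.11, Cldn19 at -0.24 ± 0.08 and Cldn2 at -0.18 ± 0.07. Cldn14, outside the set but listed with the thick ascending limb markers, lay at 0.18 ± 0.07. The groups overlapped for Cldn1 at 0.10 ± 0.30, Cldn3 at -0.10 ± 0.28 and Cldn8 at -0.06 ± 0.09. Cldn3 and Cldn8, also claudins of the distal nephron and collecting duct, thus lay below 0 too, unlike Cldn4 and Cldn7. Of the 10 genes, 3 were higher on every o-nitroanisole array than on any corn oil array, a pattern shown by 17.6% of all genes tested, and 4 were lower on every o-nitroanisole array, shown by 9.56%. The median difference of the 10 genes was -0.08 and that of all genes tested was 0.03, with the middle 90% of all genes between -0.47 and 0.45.

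**Figure D1:**
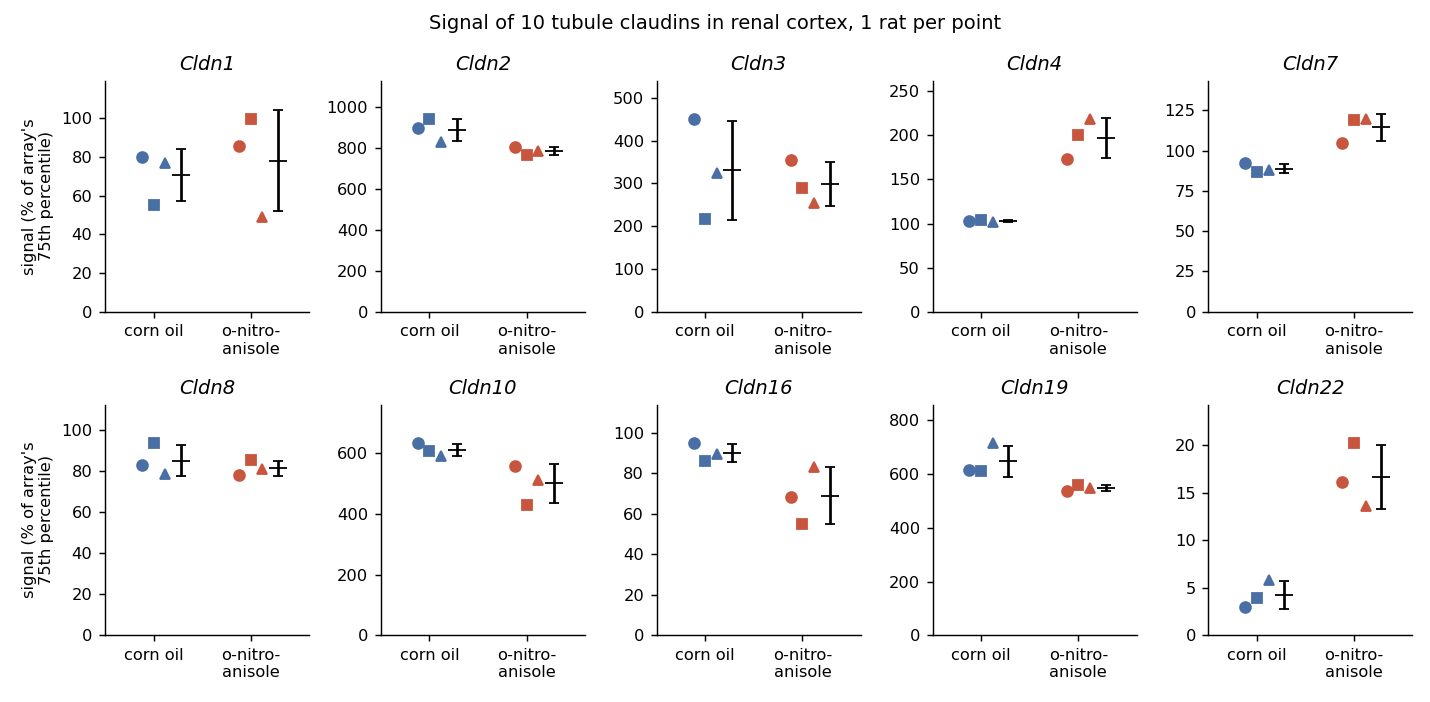
Signal of the brightest probe of each of the 10 claudin genes, as a percentage of the array's 75th percentile on axes that start at 0, with 1 point per rat (circle, square and triangle for replicates 1, 2 and 3) and black bars for the mean ± SD of the 3 arrays of a group. Cldn4, Cldn7 and Cldn22 are higher on all 3 o-nitroanisole arrays, Cldn2, Cldn10, Cldn16 and Cldn19 are lower on all 3, and Cldn1, Cldn3 and Cldn8 overlap.

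The start regions of 3 genes are shown first, from the RefSeq promoter table of build GRCr8: Cldn22 and Cldn7, the members with higher signal on every o-nitroanisole array that have an entry there, and Cldn24, the neighbour of Cldn22. Each runs 5′ to 3′ on the gene's strand from 250 bases before to 50 bases after the annotated start. Capitals mark a match, on either strand, to GCGTG, the core bound by the aryl hydrocarbon receptor, or to TGACNNNGC, the core of the antioxidant response element. The regions are chr16:51156035-51156334 on the minus strand for Cldn22, chr16:51158137-51158436 on the minus strand for Cldn24 and chr10:55188420-55188719 on the plus strand for Cldn7.
Cldn22: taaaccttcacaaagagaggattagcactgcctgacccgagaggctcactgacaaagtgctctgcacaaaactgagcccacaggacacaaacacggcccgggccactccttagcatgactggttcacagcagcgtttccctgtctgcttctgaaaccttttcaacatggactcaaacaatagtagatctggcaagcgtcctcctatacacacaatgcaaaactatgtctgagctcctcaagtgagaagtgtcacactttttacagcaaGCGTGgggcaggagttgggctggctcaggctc
Cldn24: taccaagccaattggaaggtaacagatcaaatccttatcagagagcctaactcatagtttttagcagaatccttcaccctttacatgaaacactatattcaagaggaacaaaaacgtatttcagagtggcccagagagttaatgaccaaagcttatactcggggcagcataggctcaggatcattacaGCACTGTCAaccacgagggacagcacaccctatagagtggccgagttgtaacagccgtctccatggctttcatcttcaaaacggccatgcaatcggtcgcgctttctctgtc
Cldn7: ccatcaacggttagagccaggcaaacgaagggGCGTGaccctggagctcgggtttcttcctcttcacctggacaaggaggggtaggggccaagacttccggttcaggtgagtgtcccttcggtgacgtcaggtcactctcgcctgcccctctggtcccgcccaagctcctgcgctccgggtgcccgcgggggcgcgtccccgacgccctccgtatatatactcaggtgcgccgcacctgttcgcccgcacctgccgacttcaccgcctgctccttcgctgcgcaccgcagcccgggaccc
In these letters Cldn22 and Cldn7 each hold 1 GCGTG match, and Cldn24 holds 1 TGACNNNGC match, read on the other strand. GCGTG stood in 29.7% and TGACNNNGC in 12.1% of all 33469 promoter windows of this length. Of the 8 member genes with an entry, 5 held GCGTG, among them Cldn1, Cldn3 and Cldn10, and 0 held TGACNNNGC or AACCNGTT, a site of the grainyhead-like factors that stood in 2.10% of all windows. A match of this kind is a description of the letters and not a measured binding site.

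Cldn22 encodes a claudin for which no renal role is given here. Its signal on probe A_64_P029750 was 3.00%, 3.92% and 5.85% of the 75th percentile on the 3 corn oil arrays and 16.1%, 20.2% and 13.6% on the o-nitroanisole arrays. The lowest treated rat stood 1.22 above the highest control on the log2 scale, and the difference of the means corresponded to 4.01-fold. A second probe, A_44_P358766, read 2.65%, 2.34% and 3.00% in controls and 6.81%, 7.67% and 6.17% in treated rats, a log2 difference of 1.37 ± 0.13 or 2.59-fold. Both probes placed o-nitroanisole replicate 2 highest and replicate 3 lowest among the treated rats, and both were dim on every array. Under normexp background correction, which adds an offset of 50 and so draws dim probes toward no change, the differences were 1.10 and 0.60.

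Cldn24, a claudin gene next to Cldn22 in the reference order and read from the same strand, was no member of the set but followed Cldn22 most closely. Its single probe read 3.22%, 4.21% and 7.88% in corn oil and 15.4%, 19.5% and 14.0% in o-nitroanisole, a log2 difference of 1.77 ± 0.34 that missed the threshold (limma, adjusted p = 0.116). Over the 6 arrays, after centring each gene on its own mean, Cldn24 differed from Cldn22 by a root mean square of 0.17 log2 units, the smallest among 11802 named genes searched. The 4 genes next in likeness were Kel at 0.36, Rhd at 0.37, Sorcs3 at 0.38 and Hrh4 at 0.39. Kel and Rhd encode blood group proteins of red cells, and Sorcs3 and Hrh4 do not. The log2 differences of the 4 were 1.63, 1.70, 1.51 and 1.39. A shared difference between the groups by itself brings genes close by this measure. On corn oil arrays Kel was well above background on 2 and Sorcs3 on 0, against 3 treated arrays for both. Probe sequences were not used here, and whether the probes of Cldn22 and Cldn24 read transcripts of the other gene was not tested.

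The genes on either side of this pair gave values nearer to 0. Wwc2, which lies directly before Cldn22, had a log2 difference of -0.16 ± 0.07 (limma, adjusted p = 0.277), with all o-nitroanisole arrays below all corn oil arrays. Cdkn2aip, on the far side of Cldn24, lay at 0.15 ± 0.11 (adjusted p = 0.505) with overlapping groups.

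**Figure D2:**
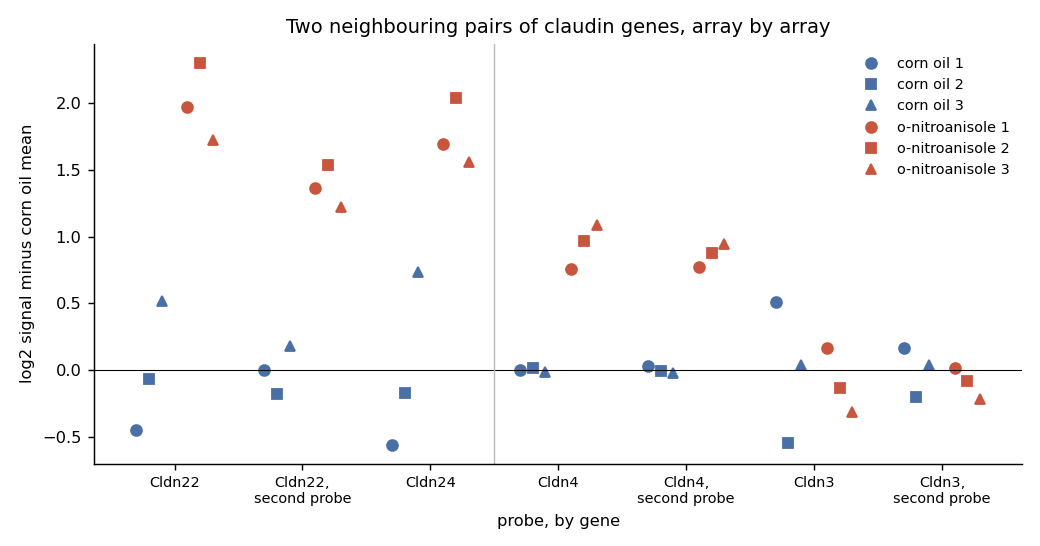
Log2 signal of 2 neighbouring gene pairs, Cldn22 with Cldn24 (left of the grey line) and Cldn4 with Cldn3 (right), each minus its mean over the corn oil arrays, with 1 point per array. Cldn22 and Cldn24 lie above all corn oil values on the 3 o-nitroanisole arrays, Cldn4 does so on both probes, and its neighbour Cldn3 overlaps on both.

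Among the claudins of the distal nephron and collecting duct, Cldn4 had the largest difference. Cldn4 acts in cultured collecting duct cells as a barrier to sodium and a path for chloride. Its signal on probe A_44_P975437 was 102%, 104% and 101% in corn oil and 173%, 201% and 218% in o-nitroanisole, or 1.91-fold. The controls lay close together, and the lowest treated rat stood 0.74 above the highest control on the log2 scale. The second probe, A_44_P299550, read 33.2%, 32.4% and 32.1% against 55.5%, 59.9% and 62.7%, a log2 difference of 0.87 ± 0.07. In limma's default fit across genes, which read Cldn4 from the first probe, its adjusted p of 0.0711 was the smallest reached and was shared by 51 genes and probes. With trend and robust moderation limma gave Cldn4 an adjusted p of 0.0242 and Cldn22 0.0342, and these were the 2 claudins called, in a setting that called 1.24% of all genes higher and 0.373% lower. After normexp 1 claudin was called, Cldn4, with a limma adjusted p of 0.0307. That setting called 76 of all 32428 genes and probes higher and 39 lower. As the members were selected on these differences, the adjusted p-values and calls of Cldn4 and Cldn22 describe them and are no test.

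Cldn7 seals the junctions of the distal nephron and also sits on the basolateral membrane of collecting duct cells. Its single probe read 92.0%, 86.7% and 87.7% in corn oil and 105%, 119% and 119% in o-nitroanisole, or 1.29-fold, with no overlap. The difference was 0.21 under normexp. Cldn8, which in cultured collecting duct cells brings Cldn4 to the junction, read 83.3%, 93.8% and 78.8% in corn oil and 78.3%, 85.6% and 81.1% in o-nitroanisole. Its groups overlapped on both probes, with log2 differences of -0.06 ± 0.09 and -0.09 ± 0.12.

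Cldn3, a sealing claudin of the loop, distal tubule and collecting duct, lies next to Cldn4 in the genome, yet both of its probes gave -0.10 ± 0.28 and -0.10 ± 0.12. The first read 450%, 217% and 325% in corn oil and 354%, 288% and 255% in o-nitroanisole. Most of its spread lay among the controls, where replicate 1 was highest and replicate 2 lowest on both probes. Leaving out 1 array at a time moved the difference from -0.37, without corn oil replicate 2, to 0.16, without corn oil replicate 1.

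Cldn1 is a claudin of the parietal epithelium of Bowman's capsule. Its 3 probes did not share a direction, with log2 differences of 0.10 ± 0.30, 0.52 ± 0.41 and -0.17 ± 0.19 and overlapping groups on each. The brightest read 79.9%, 55.1% and 76.8% in corn oil and 85.8%, 99.3% and 49.2% in o-nitroanisole. All 3 probes placed o-nitroanisole replicate 2 highest and replicate 3 lowest among the treated rats. Leaving out o-nitroanisole replicate 2 or 3 moved its difference to -0.10 or 0.41.

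Cldn2 and Cldn10, which form pores, had lower signal on every o-nitroanisole array than on any corn oil array. Cldn2 forms the pore for sodium and water of the proximal tubule. Its probe A_44_P838355 read 897%, 940% and 831% in corn oil and 807%, 765% and 785% in o-nitroanisole. The second, A_44_P433905, read 136%, 130.2% and 129.6% against 113%, 94.6% and 100.1%, a log2 difference of -0.37 ± 0.08. The groups were separate on both, with a larger difference on the second probe, and the mean of both probes lay at -0.27. Cldn10 exists in isoforms that favour anions in the proximal tubule or cations in the thick ascending limb, and its single probe, whose isoform is not given in the sources used here, read 634%, 607% and 593% in corn oil and 559%, 429.9% and 513% in o-nitroanisole. Its treated arrays were more spread than the controls, and replicate 2 was lowest. Without o-nitroanisole replicate 2 the log2 difference moved from -0.29 to -0.19.

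Cldn16 and Cldn19 act together in the thick ascending limb as a cation path through which magnesium and calcium are reabsorbed, and loss of either in humans wastes both ions in the urine. Cldn16 read 94.9%, 86.1% and 89.7% in corn oil and 68.4%, 55.2% and 83.3% in o-nitroanisole, with the highest treated rat close to the lowest control. Its second probe gave 83.8%, 72.8% and 80.2% against 57.8%, 51.7% and 71.8%, a difference of -0.40 ± 0.14 beside the -0.41 of the first. On both probes o-nitroanisole replicate 2 was lowest and replicate 3 highest of the treated rats. Without replicate 2 the difference was -0.26 and without replicate 3 it was -0.55.

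Cldn19 read 616%, 611% and 715% in corn oil and 538%, 558% and 548% in o-nitroanisole. Its treated arrays lay close together and the spread lay in the controls, with replicate 3 highest on all 3 probes. After normexp the log2 difference of the brightest probe was -0.40 in place of -0.24. By default the other probes gave -0.21 ± 0.10, without overlap, and -0.16 ± 0.13, with overlap. The first of these other probes gave -0.11 after normexp. For the 20 member probes together, 5 were higher without overlap, where 17.5% of all single probes were, and 7 were lower without overlap, where 9.74% were. At an unadjusted p under 0.05 limma put 11.8% of all single probes higher and 7.23% lower.

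**Figure D3:**
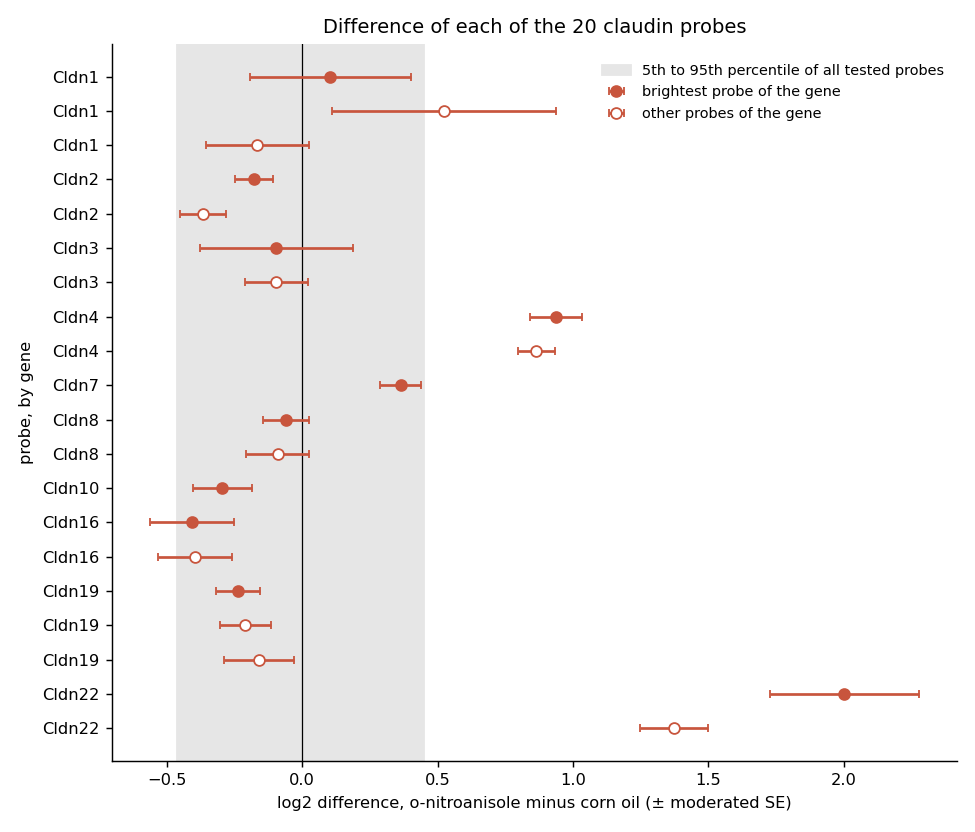
Log2 difference, o-nitroanisole minus corn oil, ± moderated SE of each of the 20 claudin probes, with filled points for the brightest probe of a gene, open points for its other probes and a grey band for the 5th to 95th percentile of all tested probes. Both probes of Cldn22 and of Cldn4 lie to the right of the band, 1 probe of Cldn1 lies past its edge with a wide error, and those of Cldn2, Cldn10, Cldn16 and Cldn19 lie inside it below 0.

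By the same measure, the genes whose arrays ran most like Cldn16, the member with the lowest difference, were Ltbp2 at a root mean square of 0.03 log2 units, Ppm1k at 0.06, Cdca7 at 0.07, and Garin1b and Fcgr2b at 0.08. Garin1b was well above background on 3 corn oil arrays and 2 o-nitroanisole arrays, so it entered the fit through the control group alone. Ltbp2 binds extracellular matrix fibrils, and its difference was -0.45 ± 0.16 (limma, adjusted p = 0.214). These distances rest on 6 arrays, and a small difference between groups makes a small distance easy to reach.

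The rest of the claudin family on the array held 17 genes on 28 probes. Of the 19 further claudins and claudin-domain genes listed, 12 were tested and 0 passed (lowest adjusted p = 0.116, Cldn24). Cldn17, Cldn20 and Cldn34d entered the fit through the treated group alone: each was well above background on 1 corn oil array and all 3 o-nitroanisole arrays, so their detection in treated rats decided that they were tested, and their differences are given with no test. Cldn20 lay at 1.12 ± 0.25 and Cldn17, next to Cldn8 in the genome, at 0.99 ± 0.20, both near background, at 1.00% to 2.12% in corn oil and 2.27% to 4.57% in o-nitroanisole. Cldn14, which blocks the Cldn16 and Cldn19 path, lay at 0.18 ± 0.07 on its brighter probe and at -0.49 ± 0.49 on the other. The lowest were Cldn23 at -0.16 ± 0.12, with a second probe at 0.39, and Cldnd1 at -0.15 ± 0.10.

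Claudins do not stand alone in the junction, and 0 of 102 tested genes on the 6 lists of junction and handling genes passed, with a lowest adjusted p of 0.0820 for Vdr. At an unadjusted p under 0.05, 20.6% of them were higher and 5.88% lower, where 11.8% and 7.12% of all genes were. The 102 hold genes that entered through the treated group alone, so these shares are a description. Cldn17, Cldn20 and Trpv6 are such genes and count in the higher share. The median of the 102 genes was 0.06 beside 0.03 for all genes.

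Of the 12 tested membrane proteins other than claudins, the highest were Igsf5 at 0.24 ± 0.13 and Ocln, which encodes occludin, at 0.24 ± 0.08 (adjusted p = 0.216). Esam, an adhesion protein of endothelium, lay at -0.44 ± 0.31 and Marveld2, the tricellulin of three-cell corners, at -0.44 ± 0.18. The groups overlapped for Igsf5, Esam and Marveld2, and the second probe of Marveld2 lay at -0.03. Of 23 scaffold and polarity genes, Tjp3, the scaffold ZO-3, lay at 0.45 ± 0.09 (adjusted p = 0.121) and Ybx3, a factor held at the junction by ZO-1, at 0.41 ± 0.10. Cgnl1, paracingulin, lay at -0.31 ± 0.19 and the scaffold Mpdz at -0.29 ± 0.09. Tjp1, which encodes ZO-1, lay at 0.07 ± 0.09 with overlap.

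Of 24 tested regulators, Vdr, the vitamin D receptor, read 96.0%, 97.0% and 98.8% in corn oil and 147%, 147% and 175% in o-nitroanisole, a difference of 0.68 ± 0.09. It missed the threshold of limma's default fit and passed with trend and robust moderation (adjusted p of 0.0295) and after normexp (0.0307). Stk39, a kinase of the WNK pathway, lay at 0.31 ± 0.09 and Wnk4, a kinase that phosphorylates claudins, at 0.29 ± 0.12 (adjusted p = 0.262). The lowest were Sgk1, an aldosterone-induced kinase, at -0.77 ± 0.46 with overlap, and Casr, the calcium receptor of the thick ascending limb, at -0.29 ± 0.14 (adjusted p = 0.335). A probe for Klhl3 was not matched by accession and is not analysed here.

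Of 14 magnesium and calcium handling genes, 12 lay above 0 and 2 below, where 18171 of all 32428 genes and probes lay above 0. Cldn16 and Cldn19 lay below. Trpv6, a calcium channel, lay at 1.18 ± 0.43 but was well above background on 2 corn oil arrays and all 3 treated ones, so it too entered through the treated group, and Calb1, a calcium-binding protein of the distal tubule, at 0.64 ± 0.33. Slc41a1, a magnesium exchanger, lay at -0.46 ± 0.12 on its brightest probe, but its 3 probes ranged up to 0.71, and Slc8a1, a sodium-calcium exchanger, at -0.06 ± 0.40. Of 17 adherens junction and desmosome genes, Nectin3, which also entered through the treated group alone, lay at 0.31 ± 0.14 and Pkp2, a desmosomal plaque protein, at 0.27 ± 0.05 (limma, adjusted p = 0.119 by default and 0.0497 with trend and robust moderation). Cdh3 at -0.35 ± 0.12 and Vcl at -0.16 ± 0.06 were lowest.

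Since whole cortex was measured, fewer cells of a type and less RNA per cell cannot be told apart. Markers of the cortical tubule segments passed the detection rule, among them Umod, Slc12a3, Aqp2 and all 12 listed proximal tubule genes. Pvalb of the distal convoluted tubule list and Slc44a5 of the thin limb list did not pass that rule. Beside Cldn4 and Cldn7, the 10 tested markers of collecting duct principal cells had a median difference of 0.27, and 6 of them were higher without overlap, where 17.6% of all genes were. Their summed signal was 18244% to 19752% in corn oil and 19847% to 23134% in o-nitroanisole. All 12 intercalated cell markers lay above 0, as did 18171 of all 32428 genes and probes, with a median of 0.42. Of these markers 11 were higher without overlap, beside the same 17.6% of all genes, with sums of 14848% to 17393% against 19791% to 22326%. Slc4a1, which is among the 12, also stands on the list of red blood cell markers. Aqp2 itself, the water channel of principal cells, lay at 0.26 ± 0.10 (adjusted p = 0.242). The part of these shifts in the difference of Cldn4 and Cldn7 was not tested.

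Beside Cldn10, Cldn16 and Cldn19, the 8 tested markers of the thick ascending limb split evenly about 0, with a median of 0.02. Without overlap 2 were higher and 3 lower, beside 17.6% and 9.56% of all genes. Cldn14, itself a claudin, is among the 8. The summed signal of the 8 was 71914% to 76208% in corn oil and 68382% to 70997% in o-nitroanisole. Most of that sum is Umod, uromodulin, at -0.25 ± 0.07 (adjusted p = 0.160), without overlap. A probe for Slc12a1 was not matched by accession. Beside Cldn2, the 12 proximal tubule markers had a median of 0.15, with 5 higher and 1 lower without overlap beside 17.6% and 9.56% of all genes. Their summed signal was 191074% to 196346% in corn oil and 198908% to 202045% in o-nitroanisole, while that of Cldn2 was lower in o-nitroanisole.

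Beside Cldn22, the 8 tested red blood cell markers had a median of 0.89, and 7 were higher without overlap, where 17.6% of all genes were. Their summed signal was 16870% to 19438% in corn oil and 26265% to 31441% in o-nitroanisole, with Ahsp at 1.98 ± 0.36 and Hbb at 0.67 ± 0.10. Of the 8, Slc4a1 stands on the intercalated cell list too, and Hemgn entered the fit through the treated group alone. The part of red cell RNA in the difference of Cldn22 was not tested. Medulla and urothelium markers, 6 tested, had a median of 0.00 and ranged more among the controls, with sums of 1792% to 5093% against 1452% to 1833%, led by Cryab at -0.96 ± 0.39 with overlap; Upk2, Krt20 and Psca were not well above background in either group. The 9 parietal epithelium and podocyte markers, beside Cldn1, had a median of 0.06. Endothelium markers had a median of 0.05, thin limb markers 0.06 and distal convoluted tubule markers 0.32 over 4 genes. The 12 tested neutrophil, macrophage and lymphocyte markers, of which 1 entered the fit through the treated group alone, had a median of 0.09. Of the 12, 7 lay above 0 and 5 below, where 18171 of all 32428 genes and probes lay above 0. The 12 markers ranged from -0.85 to the 1.76 ± 0.27 of S100a8, and Elane, Cd163 and Cd3e were not well above background. In these marker lists 0 genes passed.

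**Figure D4:**
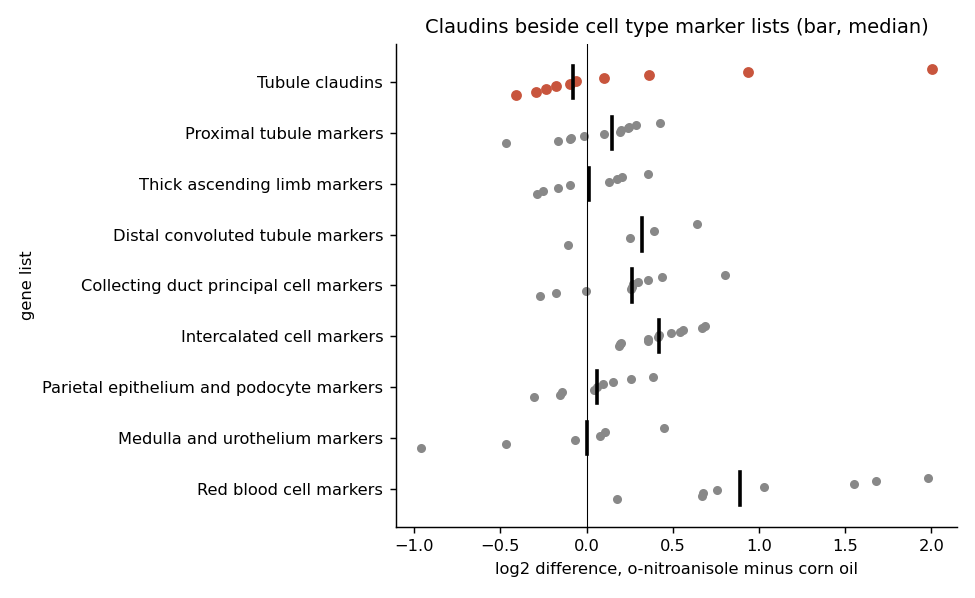
Log2 difference, o-nitroanisole minus corn oil, of the brightest probe of each gene in the claudin set (red points) and in 8 cell type marker lists (grey points), with a black bar for the median of each list. All intercalated cell and red blood cell markers lie above 0, thick ascending limb markers spread on both sides, and Cldn22 reaches as far as the highest red blood cell marker.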

How the data were processed

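Per the file headers, Agilent Feature Extraction, listed as version 10.7 in the submitters' processing notes, made the deposited processed signal of each of 6 arrays, an intensity that is background-subtracted and detrended within its array and unscaled across arrays. The authors' value table is a linear ratio, uncentred: each column matched 1 scanner file divided by its 75th percentile, within 1% for 100% of the probes compared. Its 3 corn oil columns matched corn oil files under other replicate numbers, which leaves those numbers unsettled. The scanner files were used, with the table as an alternative.

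Of 61657 non-control probes, 84 spike-in probes were dropped. RefSeq accessions gave symbols through a GRCr8 gene table (27460 of 33356 accession-bearing probes matched). The array headers name build rn4. Log2 intensity minus the array's 75th percentile was fitted with limma 3.58.1 in R 4.3.3 (lmFit, eBayes, defaults), with outlier spots missing. Testing required detection on all arrays of 1 group or both. Each gene was read from its brightest probe (32428 features with unnamed probes), and all 41096 tested probes were fitted singly as well. The code was tested on simulated data. Deviations of same-numbered arrays correlated at 0.091, 0.058 and 0.026, under the 0.1 set for pairing, so no replicate block was used. As the corn oil numbers are unsettled, this check cannot exclude pairing. By the value table's numbers the correlations were -0.0006, -0.029 and 0.034. Normexp was run on the median signal, where the mean signal had been planned.

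The members, the 6 junction and handling lists, the 11 marker lists and the 3 motifs were chosen with earlier results of these data known. All members were named with every probe; of each junction list the 2 highest and 2 lowest genes were named, with Wwc2, Tjp1, Ocln, Wnk4, Casr, Umod and Aqp2 in any case, and the 5 genes most like the highest and the lowest member. Other genes named were chosen after their values were seen.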

Additional observations from a re-analysis of the deposited data

How the results depend on the processing

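Trend and robust moderation called 522 features and normexp 115, against 0 by default, and of the junction and handling genes 2 (Vdr and Pkp2) and 1 (Vdr); the cause was not tested. The count stayed at 0 under the other scalings, detection filters, probe rules, treatment of outlier spots and the value table. Leaving out 1 array gave 0 to 4 features, the 4 without corn oil replicate 3, and 0 junction genes. The replicate block called 0 features and changed no call. A slide block could not be fitted because no slide held both groups. Each of the 10 member genes kept its sign over 10 other settings; the other claudins were not followed through them. Of the members, leaving out 1 array turned the sign of Cldn1 (-0.10 to 0.41), Cldn3 (-0.37 to 0.16) and Cldn8 (-0.12 to 0.01), and of no other; Cldn4 ranged from 0.86 to 1.03 and Cldn22 from 1.78 to 2.26. Normexp gave -0.40 for the brightest probe of Cldn19 and -0.11 for another, and averaging probes gave -0.27 for Cldn2. The median of all genes was 0.03, and 0.01 or 0.05 after quantile or median scaling. Cldn22, Cldn17, Cldn20 and Cldn24 lie near background, which limits their folds.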
